A study of Mus musculus with 3 samples.

Results

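The T-cell receptor complex and its coreceptors were followed here through 8 genes, compared between a mouse liver RNA and a mouse spleen RNA. They encode the CD3 chains Cd3d, Cd3e and Cd3g, the zeta chain Cd247, the coreceptors Cd4, Cd8a and Cd8b1, and the kinase Zap70. Members were all probes that carried one of these symbols in the platform annotation, which gave 13 of the 16281 probes of the table and 8 of its 10698 named genes. Cd3d, Cd3e, Cd3g and Zap70 had 1 probe each, Cd8a, Cd8b1 and Cd247 had 2 each, and Cd4 had 3.

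The study hybridised the same comparison to 3 two-colour oligonucleotide arrays. On each, commercial liver total RNA was labelled with Cyanine-5 and commercial spleen total RNA with Cyanine-3, after a single round of amplification. The labels give no age, sex, strain, number of animals or lot for either RNA, so the arrays were treated as repeats of 1 pair of RNAs, and each SD and p-value measures the spread between arrays only. Liver RNA carried the same dye on every array, and a bias of a probe toward that dye cannot be told apart from a difference between tissues.

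Each deposited value is a log2 ratio of the array's channels. The labels do not state its direction, and it is likely liver over spleen, so that a negative value means less signal from liver. The basis was a check on hepatocyte and lymphoid genes. Otc, a urea cycle enzyme of hepatocytes, read 5.18, 5.07 and 4.67 on arrays 1, 2 and 3. Of 6 liver check probes, only those of Otc and Ahsg had a value on all arrays, those of Alb and Serpina1b had one on array 2, and those of Apoa1 and Ttr were listed at exactly 0 on all. Of 12 spleen check probes, 10 had values on all arrays, and 8 of these passed the test below with a negative ratio. The chemokine receptor Cxcr5, for example, read -1.75, -1.76 and -1.61. An exact 0 was taken as no measurement, because probes of abundant liver transcripts were among them.

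In an αβ T cell, the receptor's α and β chains recognise peptide on an MHC molecule but have almost no intracellular part of their own. Signals enter the cell through the CD3 chains and the zeta chain, whose tyrosine motifs are phosphorylated by the kinase Lck and then bind Zap70. CD4 and CD8 are the coreceptors for MHC class II and class I. The spleen is a lymphoid organ with large T-cell areas, whereas liver holds fewer lymphocytes among its hepatocytes. Some of these genes are also used by other cells, since mouse dendritic cell subsets can carry CD4 or CD8α, and NK cells use Cd247 and Zap70.

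Of the 13 probes, 12 had a value on every array and were tested with limma against a ratio of 0, with Benjamini-Hochberg adjustment over all 14122 such probes of the table. Probes with an adjusted p under 0.05 are called past the test. By this rule 1 member probe was higher in liver, where 23.5% of all tested probes were, and 5 member probes were lower in liver, where 26.7% of all tested probes were. The other 6 did not pass. The total of 6 among 12 is to be read against 50.2% of all tested probes past the test in either direction, and by itself does not set the genes apart. At 2-fold or more, 4 member probes were lower in liver, against 9.13% of all tested probes, and none was higher, against 8.85%. Their median log2 ratio was -0.17, and that of all tested probes was 0.02. Both RNAs came from whole tissue, where fewer T cells and less RNA per T cell cannot be told apart.

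**Figure D1:**
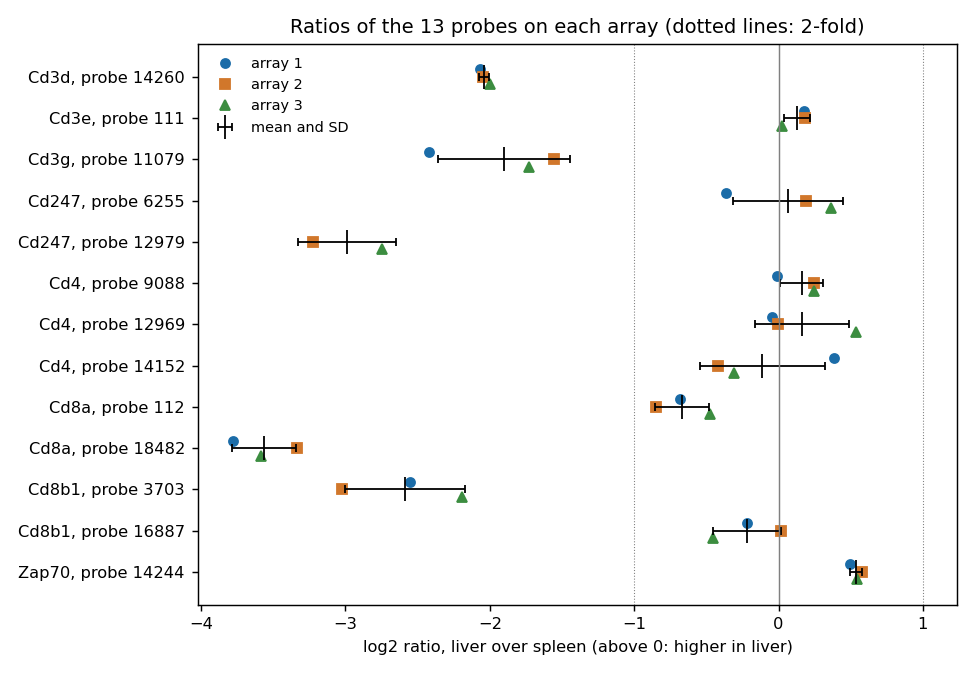
Log2 ratio of liver over spleen (horizontal axis) for each of the 13 probes (rows) on arrays 1, 2 and 3, with the mean and SD in black. The probes of Cd3d and Cd3g, probe 18482 of Cd8a, probe 3703 of Cd8b1 and probe 12979 of Cd247 (no value on array 1) lie beyond the 2-fold line on the side of spleen. Probe 112 of Cd8a at -0.67 and Zap70 at 0.54 lie short of the 2-fold lines, and the other probes, of Cd3e, Cd4, Cd247 and Cd8b1, have means between -0.22 and 0.16.

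The CD3 genes gave 2 clearly lower ratios and 1 near 0. Cd3d, which encodes the δ chain that pairs with ε, read -2.07, -2.05 and -2.00 on arrays 1, 2 and 3. Its level was thus 4.11-fold lower in liver, at -2.04 ± 0.04 (SD, n = 3 arrays; adjusted p = 2.98e-05 by limma). All 3 arrays lay within a narrow range, and 95.6% of the tested probes had a larger SD. Cd3g, which encodes the γ chain, the other partner of ε, read -2.42, -1.55 and -1.73. All arrays were on the same side of 0, with array 1 lowest. The mean of -1.90 ± 0.46 was a 3.73-fold lower level in liver (adjusted p = 0.000553, limma). Its spread was among the wider ones, and 6.1% of the tested probes had a larger SD.

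Cd3e encodes the ε chain, which every CD3 dimer contains. Its probe read 0.18, 0.18 and 0.03, all slightly above 0. The mean of 0.13 ± 0.09 did not pass the test (adjusted p = 0.241, limma), and its 95% interval ran from -0.08 to 0.34. The values of Cd3e lay above those of Cd3d and Cd3g on every array, with no overlap between the probes. Cd3d lies between Cd3g and Cd3e in the order of protein-coding genes on mouse chromosome 9, by the RefSeq annotation of GRCm38.p6. No channel intensity was used here, so a ratio near 0 does not tell how much of a transcript either RNA held.

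RefSeq promoter windows, from 250 bases before to 50 after a gene's start, were at hand for 6 of the 8 genes, not for Cd4 and Cd8b1. Those of Cd3d and Cd3g are shown because these neighbours, transcribed away from each other from starts 1355 bases apart, both had lower ratios in liver. They are given 5′ to 3′ on the gene's own strand in GRCm38.p6, at chr9:44981536-44981835 on the plus strand for Cd3d and at chr9:44980382-44980681 on the minus strand for Cd3g. Capitals mark matches on either strand to short cores of motifs of lymphocyte transcription factors. The core searched for RUNX factors was TGTGGT. The core for ETS factors was AGGAAG, and that for GATA factors was GATAA. For TCF/LEF factors the core was CTTTGA, and for E proteins it was CAGGTG. No matches overlapped each other in the windows shown.
Cd3d promoter window: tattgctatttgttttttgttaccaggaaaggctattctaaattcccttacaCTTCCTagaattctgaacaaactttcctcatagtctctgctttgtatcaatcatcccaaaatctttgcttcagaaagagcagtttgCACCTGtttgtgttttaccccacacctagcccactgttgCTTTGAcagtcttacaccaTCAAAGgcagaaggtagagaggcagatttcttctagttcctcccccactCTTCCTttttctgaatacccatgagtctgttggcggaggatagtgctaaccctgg
Cd3g promoter window: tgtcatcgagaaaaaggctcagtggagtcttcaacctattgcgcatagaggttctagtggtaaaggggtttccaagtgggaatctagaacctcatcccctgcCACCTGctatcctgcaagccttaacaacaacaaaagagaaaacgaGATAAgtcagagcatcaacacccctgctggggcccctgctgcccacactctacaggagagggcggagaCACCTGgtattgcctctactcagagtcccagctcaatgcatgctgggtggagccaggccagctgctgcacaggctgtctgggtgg
The Cd3d window held 2 ETS cores, 2 TCF/LEF cores and 1 E-protein core, and the Cd3g window held 2 E-protein cores and 1 GATA core. Of the 32851 windows of the same length in the RefSeq table, 35.4% held the ETS core, 16% the TCF/LEF core, 20.2% the E-protein core, 25.4% the GATA core and 16.8% the RUNX core. Genes with several starts count more than once. The Cd3e window held 2 ETS cores and 1 E-protein core. The Cd247 window held 2 ETS cores, 1 TCF/LEF core and 1 E-protein core. Zap70, whose probe was higher in liver, had 3 windows, and each held matches too. One had 1 ETS core, 1 TCF/LEF core and 2 E-protein cores. Another had 1 RUNX core and 2 ETS cores, and the last had 1 E-protein core. Such short matches describe the letters of the windows and are common.

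The 2 probes of Cd247, the zeta chain that carries most of the complex's signalling motifs, differed widely. Probe 12979 read -3.23 on array 2 and -2.75 on array 3, and was listed at 0 on array 1. The mean of its 2 values was -2.99, a 7.93-fold lower level in liver, and with a missing array it was left out of the test. Probe 6255 read -0.36, 0.19 and 0.37 on arrays 1, 2 and 3, on both sides of 0. Its mean of 0.07 ± 0.38 (SD, n = 3) did not pass (adjusted p = 0.741, limma; 95% interval -0.32 to 0.46). On the arrays where both were measured, probe 6255 was higher than probe 12979 by 3.42 and 3.12.

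Both CD8 genes had a probe far toward spleen. Cd8a, the α chain shared by the common forms of CD8, read -3.78, -3.34 and -3.58 on probe 18482. At -3.57 ± 0.22 the level was 11.8-fold lower in liver (SD, n = 3; adjusted p = 1.87e-05, limma). Of the 14122 tested probes, 10 had a lower mean. On probe 112 Cd8a read -0.69, -0.85 and -0.48, also below 0 on every array but with no overlap with the other probe. The mean of -0.67 ± 0.19 passed the test (adjusted p = 0.00345, limma) at a 1.59-fold lower level in liver, short of 2-fold.

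Cd8b1 encodes the β chain, which pairs with α on conventional CD8 T cells and is largely missing from CD8α-positive dendritic cells. Its probe 3703 read -2.55, -3.02 and -2.19. The mean of -2.59 ± 0.41 was a 6.01-fold lower level in liver (SD, n = 3; adjusted p = 0.000142, limma), and 0.673% of the tested probes had a lower mean. Probe 16887 of the same gene read -0.22, 0.02 and -0.45, with array 2 just above 0. Its mean of -0.22 ± 0.24 did not pass (adjusted p = 0.163, limma; 95% interval -0.50 to 0.07). Cd8b1 and Cd8a are neighbours on mouse chromosome 6.

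The promoter window of Cd8a is shown because its probe 18482 had the lowest ratio of the tested member probes. It lies at chr6:71373177-71373476 on the plus strand of GRCm38.p6.
Cd8a promoter window: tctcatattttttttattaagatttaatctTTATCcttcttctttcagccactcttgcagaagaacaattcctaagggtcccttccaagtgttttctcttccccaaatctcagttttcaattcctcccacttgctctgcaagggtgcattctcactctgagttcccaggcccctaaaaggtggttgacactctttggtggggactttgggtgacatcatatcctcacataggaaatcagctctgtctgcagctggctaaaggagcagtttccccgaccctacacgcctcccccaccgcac
The capitals mark a single GATA core on the opposite strand, and the other 4 cores searched were not in this window.

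Cd4 differed from Cd8a and Cd8b1 in having no probe past the test. Probe 9088 read -0.01, 0.25 and 0.24 on arrays 1, 2 and 3, and probe 12969 read -0.05, 0.00 and 0.53. Probe 14152 read 0.38, -0.42 and -0.31. Each of the 3 probes had values on both sides of 0. Their means were 0.16 ± 0.15, 0.16 ± 0.32 and -0.11 ± 0.43 (SD, n = 3 each), with adjusted p-values of 0.201, 0.365 and 0.608 by limma. The 95% intervals ran from -0.07 to 0.39, from -0.18 to 0.51 and from -0.54 to 0.32. These intervals lie within 2-fold of an equal signal in both directions, and do not reach the ratios of the lower Cd8a and Cd8b1 probes. All 3 do overlap the interval of Cd8b1 probe 16887, from -0.50 to 0.07. That of Cd4 probe 14152 also overlaps the interval of Cd8a probe 112, from -0.93 to -0.42.

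Zap70, the kinase that docks on the phosphorylated CD3 and zeta chains, went the other way by a small amount. It read 0.50, 0.58 and 0.54, above 0 on all 3 arrays. The mean of 0.54 ± 0.04 (SD, n = 3) was a 1.45-fold higher level in liver (adjusted p = 0.00298, limma; 95% interval 0.34 to 0.74). Its spread was narrow, with a larger SD in 94.3% of the tested probes, and 2083 of them had a higher mean. The value is short of 2-fold.

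**Figure D2:**
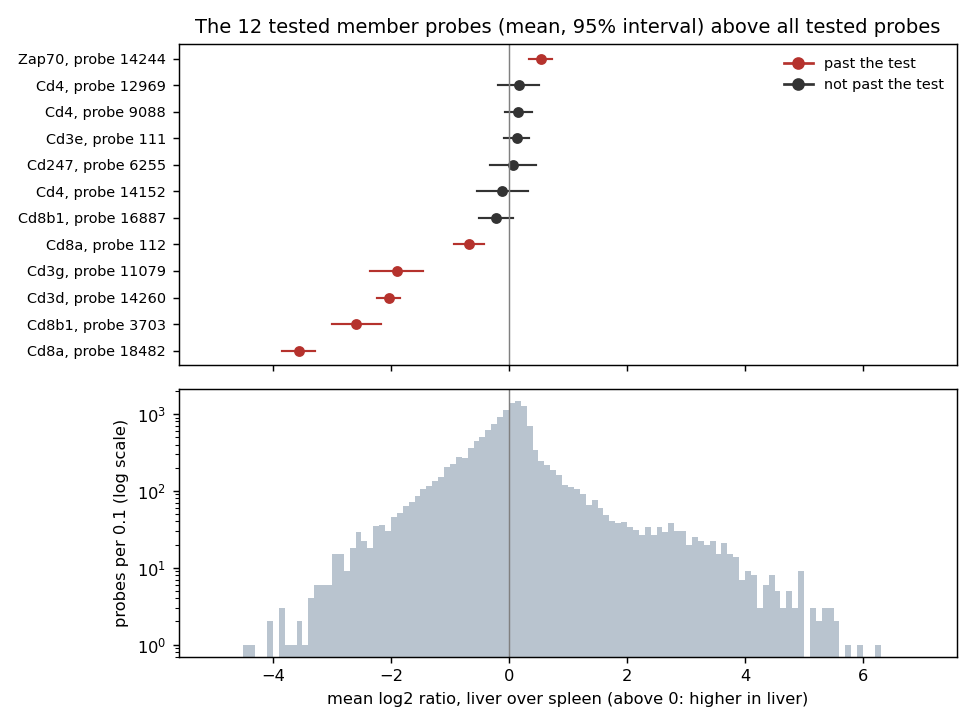
Upper panel, mean log2 ratio of liver over spleen with its 95% interval for each of the 12 tested member probes, in order of their means; lower panel, the means of all 14122 tested probes on the same axis, with the number per 0.1 on a log scale. The Cd8a probe at -3.57 lies near the lower edge of all probes, and 6 member probes that did not pass sit in the central peak.

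In the order of the 12 means, probe 18482 of Cd8a was lowest, followed by Cd8b1 probe 3703, Cd3d and Cd3g. The values of Cd8a probe 18482 did not overlap with those of Cd8b1 probe 3703, with a mean gap of 0.98 (SD 0.58 over the arrays). Those of Cd8b1 probe 3703 did not overlap with those of Cd3d, with a mean gap of 0.55 (SD 0.39). Cd3d and Cd3g overlapped, and their mean difference of 0.14 was smaller than its SD of 0.44 over the arrays. Next came Cd8a probe 112 at -0.67, whose values did not overlap with those of either neighbour, though its gap of 0.45 to the next probe was close to the SD of that difference, 0.42. From Cd8b1 probe 16887 up to Zap70, each probe overlapped with the next in the order. As all are ratios within an array, this order compares differences between the RNAs and not transcript levels.

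The different probes of a gene were compared on every array and tested with limma over all 2902 pairs of probes that shared a gene symbol and were measured throughout. Of these pairs 38.0% differed past the test, and 16.4% did so by 2-fold or more. The Cd8a probes differed by 3.09, 2.49 and 3.11 on arrays 1, 2 and 3 (probe 112 minus probe 18482). Their mean difference was 2.89 ± 0.35 (SD, n = 3; adjusted p = 0.000394, limma), and 32 of the 2902 pairs differed by more. The Cd8b1 probes differed by -2.33, -3.04 and -1.74 (probe 3703 minus probe 16887), a mean of -2.37 ± 0.65 (adjusted p = 0.002, limma). In size, 66 of the 2902 pairs differed by more. The annotation gives both Cd8b1 probes the same sequence record, while those of Cd8a and of Cd247 come from different records. Cd4 probes 9088 and 14152 share a record, and Cd4 probe 12969 has another.

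The 3 Cd4 pairs did not differ past the test, with mean differences of 0.00, 0.27 and 0.27 and adjusted p-values of 0.997, 0.424 and 0.464 by limma. Their 95% intervals ran from -0.36 to 0.35, from -0.32 to 0.87 and from -0.38 to 0.93. Without array 1, probe 9088 exceeded probe 14152 by 0.61 (adjusted p = 0.0427, limma).

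Among genes with a far probe and another tested probe, the other was often near 0 or past it. Gaps as large as those of Cd8a and Cd8b1 were few among all pairs, with 1.1% differing by more than Cd8a and 2.27% by more than Cd8b1. They were not particular to these genes. In the lists below, for example, Ptprc had probes at -4.33 and 0.03, and Cd27 at -3.07 and 0.15. Of 2236 genes with 2 or more tested probes, 356 had a lowest probe at least 2-fold lower in liver. In 196 of these 356 (55.1%) the highest probe was above -0.5, as for Cd8b1. In 85 (23.9%) all tested probes were at least 2-fold lower. On the opposite side, 214 genes had a highest probe at least 2-fold higher in liver, and in 120 of them (56.1%) the lowest probe was below 0.5.

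**Figure D3:**
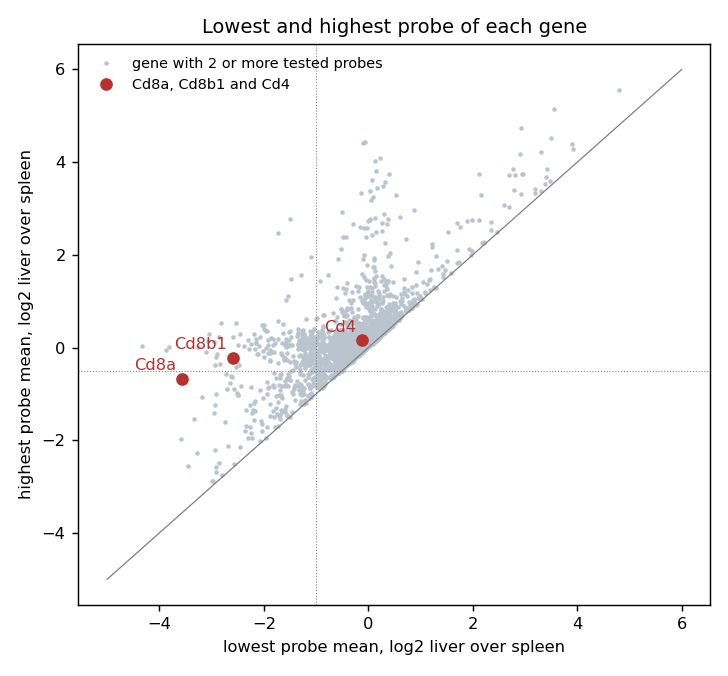
Highest probe mean against lowest probe mean (both log2 liver over spleen) for each of the 2236 genes with 2 or more tested probes; the diagonal marks equal values and the dotted lines stand at -1 and -0.5. Cd8b1 and Cd8a lie in the horizontal band of genes with a low and a near-0 probe, with Cd8a just under the -0.5 line, and Cd4 lies near the diagonal close to 0.

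Genes around the complex were taken from whole lists by role. Their counts are to be read against 23.5% of all tested probes higher in liver and 26.7% lower. Among T-cell receptor chains, 3 of 6 tested probes passed, each lower in liver, with a median log2 ratio of -0.24. The β variable segment Trbv13-2 averaged -1.31 ± 0.72 on 1 probe (adjusted p = 0.0104, limma), and its other probe was at 0.00 (adjusted p = 0.983). Trbv1 averaged -0.83 ± 0.46 and the γ variable segment Trgv1 -0.32 ± 0.01. The α segments Trav19 at -0.17 and Trav6-2 at -0.06 did not pass. These segments belong to families of similar genes, and shared signal between them was not tested. With exact zeros kept as values, 1 of these chain probes passed.

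Proximal signalling genes, which act at the receptor with Zap70, had a median of -0.93 over 41 tested probes. Of these, 1 passed with more signal in liver and 26 with less, and those with less made up 63.4%. The single higher one, a probe of the adaptor Grap2 at 0.30 ± 0.07, did not pass without array 1 or without array 3. Another Grap2 probe was at -2.46 ± 0.44 and passed, and a further one at -0.12 ± 0.18 did not. The leukocyte phosphatase Ptprc, which also serves B cells, was lowest at -4.33 ± 0.47 on 1 probe, and at 0.03 ± 0.13 on another that did not pass. The adaptor Fyb was at -2.87 ± 0.26, -2.80 ± 0.64 and -2.49 ± 0.43 on separate probes. Lat and Lcp2 are the adaptors that Zap70 phosphorylates. Lat was at -2.14 ± 0.37 and -0.79 ± 0.48 on 2 probes past the test, and at 0.10 ± 0.09 on a further one that did not pass (adjusted p = 0.359, limma). Lcp2 was at -2.36 ± 0.41 and -1.79 ± 0.12, both past the test. Syk, the Zap70 relative used mainly by B and myeloid cells, was at -1.25 ± 0.35 and passed, on the opposite side of 0 from Zap70.

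Distal signalling genes had a median of -0.38 over 27 tested probes, and 16 of them passed with less signal in liver. Without array 2 this count was 10. Rhoh, a GTPase of blood cells, was at -2.64 ± 0.43, the kinase Prkcq at -1.88 ± 0.29 and the immediate early gene Fos at -1.52 ± 0.46 on their lower probes. The other probes of Prkcq and Fos also passed, at -1.47 ± 0.66 and -0.61 ± 0.03.

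T-cell surface markers had a median near 0, at -0.11 over 38 tested probes, of which 2 passed with more signal in liver and 13 with less. The share with less, 34.2%, was not far above the 26.7% of all tested probes. At 2-fold or more, 9 of the 38 were lower in liver, against 9.13% of all tested probes, and 1 was higher, against 8.85%. The costimulatory receptor Cd27 was at -3.07 ± 0.59, the interleukin receptor Il7r at -2.82 ± 0.12 and Ptprcap, a partner of Ptprc, at -2.31 ± 0.12. The other probes of Cd27 and Ptprcap were at 0.15 ± 0.13 and 0.16 ± 0.16 and did not pass (adjusted p = 0.215 for each, limma). The adhesion molecule Cd2 was at -1.23 ± 0.13 and -1.22 ± 0.47, and Cd28 at -2.16 ± 0.32 and -1.16 ± 0.49. The 23 probes that did not pass included both of Cd6, at -0.31 ± 0.25 and -0.12 ± 0.15. Among them were also both of Cd40lg, at 0.16 ± 0.23 and 0.19 ± 0.12, Ccr7 at 0.31 ± 0.19 and Icos at -0.10 ± 0.14. The probes higher in liver were S1pr1 at 1.01 ± 0.36, a receptor also found on endothelium, and Ly9 at 0.25 ± 0.06. The other Ly9 probe passed with less signal in liver, at -1.37 ± 0.62 (adjusted p = 0.00533, limma), and the other S1pr1 probe at -0.08 ± 0.27 did not pass. Without array 1, without array 3 or with arrays centred, 1 of the surface probes passed with more signal in liver.

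Of 20 tested probes of T-lineage transcription factors, 2 passed with more signal in liver and 9 with less, with a median of -0.31. The chromatin organiser Satb1 was at -2.34 ± 0.33, Klf2 at -1.99 ± 0.15 and Ets1 at -1.76 ± 0.26 and, on its other probe, -1.05 ± 0.33. Foxo1 at 0.64 ± 0.22 and Tcf12 at 0.28 ± 0.08 were higher in liver, and both have roles outside T cells. In this list too the higher count was 1 without array 1, without array 3 or with arrays centred.

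**Figure D4:**
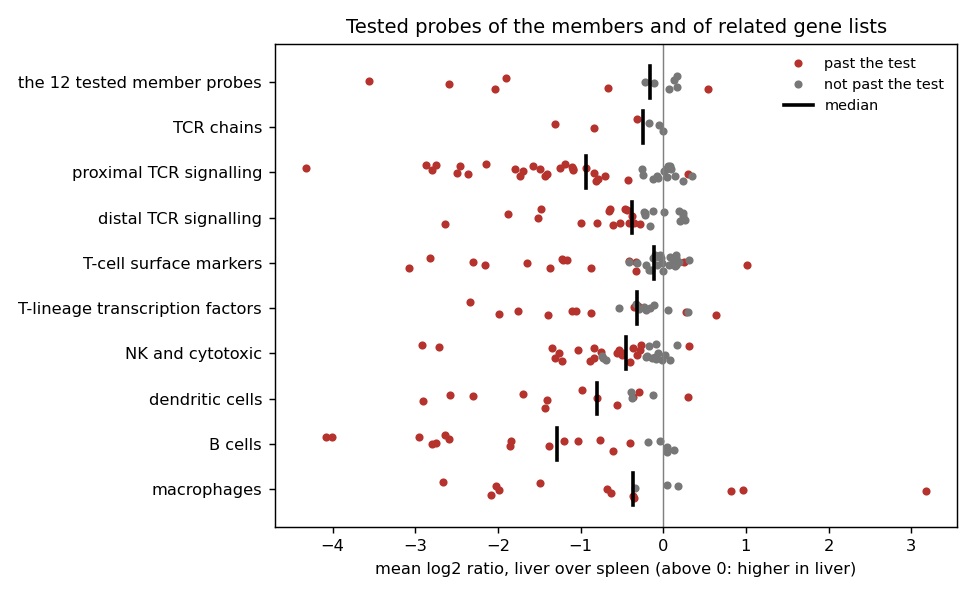
Mean log2 ratio of liver over spleen for the 12 tested member probes (top row) and for the tested probes of 9 gene lists, with the median of each row as a black bar and probes past the test in red. The medians of the 9 lists run from -0.11 for T-cell surface markers to -1.29 for B cells, and lie below 0 in each.

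Markers of other cells that can carry these genes were counted in the same way. Of 36 tested probes of NK and cytotoxic genes, 1 passed with more signal in liver and 20 with less, and with exact zeros kept 13 did. The granule protease Gzma was at -2.91 ± 0.18 and the receptor chain Klrd1 at -2.71 ± 0.18 on their lower probes. The other Gzma probe was at -0.21 ± 0.15 and did not pass, and the other Klrd1 probe was at -0.89 ± 0.23 and passed. The probe higher in liver, of the NK receptor Ncr1 at 0.31 ± 0.18, lost its call when any 1 of the arrays was left out or arrays were centred, and the other Ncr1 probe was at -1.35 ± 0.41. Of 15 tested dendritic cell probes, 1 passed with more signal in liver and 11 with less, with a median of -0.80. Cd83 was at -2.91 ± 0.29 and -2.58 ± 0.34, and Irf8 at -2.30 ± 0.32. Itgax at -0.39 ± 0.51, Esam at -0.13 ± 0.09 and 1 probe of Zbtb46 at -0.38 ± 0.54 did not pass. The probe higher in liver was of the chemokine receptor Xcr1, at 0.30 ± 0.09, and it lost its call when any 1 of the arrays was left out.

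B-cell and macrophage probes were counted for comparison. Of 20 tested B-cell probes, 15 passed with less signal in liver, with a median of -1.29, led by Spib at -4.08 ± 0.15, Btk at -4.01 ± 0.10 and 1 probe of Blnk at -2.96 ± 0.78. The other Blnk probe was at 0.13 ± 0.19 and did not pass (adjusted p = 0.335, limma). Ms4a1 at 0.05 ± 0.29, Ebf1 at 0.04 ± 0.05, Blk at -0.04 ± 0.47 and Pax5 at -0.18 ± 0.28 did not pass either. Of 15 tested macrophage probes, 3 passed with more signal in liver and 9 with less, with a median of -0.36. Clec4f, a lectin of Kupffer cells, was at 3.18 ± 0.32 on its higher probe and at 0.05 ± 0.11 on the other, which did not pass. Cd5l was also higher in liver, at 0.97 ± 0.06 and 0.82 ± 0.06, both past the test. Lyz2 was at -2.66 ± 0.38, and Marco at -2.08 ± 0.25 and -2.02 ± 0.29. The part of these cells in the ratios of Cd4, Cd8a, Cd247 and Zap70 was not tested.

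The likeness of other probes to the extremes was measured as the Euclidean distance of the log2 ratios over the 3 arrays. Nearest to Cd8a probe 18482, among 12257 probes of other genes, were Il18r1 at a distance of 0.183, Coch at 0.399 and Ccl24 at 0.421. Their means were -3.58, -3.77 and -3.81, and 5 probes in all lay within 0.5. Nearest to Zap70 were Wbp1 at 0.0172, Degs1 at 0.0292 and Yae1d1 at 0.04, and 1532 probes lay within 0.5 of it. With 1 contrast repeated on 3 arrays, this distance mostly compares the size of the ratio.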

How the data were processed

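Mouse liver and spleen RNA were compared on 3 two-colour arrays. The deposited table gives 1 log2 ratio per probe and array. The log2 base was taken from the values, whose highest is 6.64 on every array, the log2 of 100. The labels do not say how background and dyes were corrected or how probes were designed. Depth has no meaning for arrays, and their number limits the precision.

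Exact zeros (13.3% of probes had at least 1) were treated as missing. Probes were named from the platform annotation, checked by Entrez number against RefSeq (GRCm38.p6): 13738 of 16281 had 1 symbol, 52 several and 2491 none. Of the 13738, 13694 matched and no symbol changed. Each probe's ratios were fitted with limma 3.58.1 in R 4.3.3 (intercept only, moderated variances with 3.38 prior degrees of freedom, two-sided, Benjamini-Hochberg). Pairs of probes of a gene were fitted likewise on their differences. The fits were tested on simulated data in which, unlike here, few probes were changed. There the probe test called 89.2% of log2 changes of 2, 58.8% of changes of 1 and 6.4% of changes of 0.5. The pair test called 92.8%, 69.2% and 30.4% of the same positive changes. Alternatives covered zeros, missing values, centring, scaling, variances, a 2-fold limit and each array left out.

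Members and lists were chosen with earlier results of these data known. Every member probe is described. From each list, up to 3 of the lowest and 2 of the highest probes past the test were named. Lat, Lcp2, Syk, Cd2, Cd28, Vav1, the probes beside a named one, and members that did not pass were chosen after their values were seen, as was the limit of 0.5 for near probes.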

Additional observations from a re-analysis of the deposited data

Results flagged for a closer look

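Probe 12979 of Cd247 carries a signal outside the tested values. It had no value on array 1, and its mean log2 ratio of liver over spleen on arrays 2 and 3 was -2.99, past 2-fold on both. Fitted over probes with at least 2 values it passed the test (adjusted p = 0.000246, limma). The fit without array 1 (adjusted p = 0.000171, limma) used the same 2 values and is not a separate check. With its exact 0 kept as a value, the mean was -1.99 and it did not pass (adjusted p = 0.172). Groups of 3 arrays are too small for the check on single outlying samples.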

How the results depend on the processing

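Under the alternatives, the 6 member probes past the test kept their direction and stayed past it, except that under the 2-fold limit 0 member probes passed with more signal in liver and 4 with less. The counts over member probes stayed at 1 higher in liver, and were 5 to 6 lower, with each array left out. Over all probes, 3319 passed with more signal in liver and 3767 with less, 1250 and 1290 at 2-fold, and 2390 to 2790 and 2993 to 3363 with an array left out. The probe pairs past the test numbered 1102, or 476 at 2-fold, and refits with an array left out called 746 to 995. Averaging the probes of Cd8b1 gave -1.40 (adjusted p = 8.14e-05, limma), past the test, unlike its probe 16887. With 2-fold required, list counts with more signal in liver were 0 for proximal signalling, transcription factors, NK and dendritic genes, and 1 for surface markers and macrophages. Those with less were 1 of 6 tested probes for receptor chains, 20 of 41 for proximal and 5 of 27 for distal signalling. They were 9 of 38 for surface markers, 6 of 20 for transcription factors and 7 of 36 for NK genes. For dendritic, B-cell and macrophage genes they were 6 of 15, 12 of 20 and 5 of 15. Of all tested probes, 9.13% were lower in liver by this rule and 8.85% higher. With zeros kept, 1 receptor chain probe and 13 NK probes passed with less signal in liver, and 3 distal and 0 NK probes with more. With only probes of 1 symbol, 1 distal probe passed with more. With arrays centred, or centred and scaled, 1 surface, 1 transcription factor and 0 NK probes passed with more; over probes on at least 2 arrays, 1 surface and 0 NK probes did. With an array left out, the counts with more signal in liver were 0 to 1 for proximal signalling, 1 to 2 for surface markers and transcription factors, and 0 for NK and dendritic genes, and 10 to 14 distal probes passed with less. The cause of these shifts was not tested. Each array holds both RNAs, so its ratio already pairs them, and with 1 group of arrays no further pairing was possible.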

Other observations

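Other genes around the receptor had probes that were apart or close. The exchange factor Vav1 was at -1.49 ± 0.56 on a probe past the test and at 0.35 ± 0.61 on one that did not pass (adjusted p = 0.252, limma; SD, n = 3 arrays). Csk, the kinase that restrains Lck, was at -0.71 ± 0.24 on a probe past the test and at -0.06 ± 0.04 on one that did not pass (adjusted p = 0.561). In Ptpn22, a phosphatase that acts with Csk, both probes passed, at -1.40 ± 0.07 and -0.82 ± 0.18. The tested probes of Txk, a kinase of T cells, gave close values, at -1.74 ± 0.04 and -1.69 ± 0.23. These genes were chosen after their values were seen.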
